A study of Mus musculus with 12 samples.

Results

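The Ms4a genes encode a family of small tetraspan membrane proteins that sit side by side on mouse chromosome 19. The 6 genes followed here are Ms4a4c, Ms4a6b, Ms4a6c, Ms4a6d, Ms4a7 and Ms4a8a. They were selected on their levels in the 4 groups of this experiment, which were already known, so their own values are given as a description and carry no test. A search of the count table for gene symbols made of Ms4a and a number found 19 genes on chromosome 19 among 32285 genes in all, and the other 13 are described more briefly. Of the 19, 12 had enough counts to enter the fit of all genes, including each of the 6, although Ms4a8a and its relative Ms4a4d entered only through the groups in which their counts were higher. The remaining 7 had almost no counts.

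Each Ms4a protein crosses the membrane several times and has both ends in the cytoplasm, and members associate with other receptors at the cell surface. The best known are Ms4a1, which is the B cell antigen CD20, Ms4a2, which is the beta chain of the high-affinity IgE receptor of mast cells and basophils, and Ms4a3, a marker of granulocyte-monocyte progenitors. Ms4a7 and the Ms4a4 and Ms4a6 genes are expressed in macrophages and other myeloid cells, and some Ms4a4 and Ms4a6 proteins are also made by T cells.

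The cells were macrophages grown in culture from the bone marrow of wild-type mice. Over 16 h they received 1 of 3 dicarboxylic acids, each diluted to 5 mM from a 50 mM stock, or medium with no addition (M). Itaconic acid (IA) is a product of activated macrophages, methylsuccinic acid (MetSA) has its carbon skeleton but lacks the carbon-carbon double bond, and malonic acid (MA) is shorter and inhibits succinate dehydrogenase. Each group had 3 biological replicates, read by poly(A) RNA sequencing, and whether these came from separate animals is not given, so the tests below measure only the spread between these libraries.

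The 12 libraries held 46892488 to 54252486 counts and showed 16662 to 17246 genes above 0, and 14113 genes were tested. Levels are in CPM, counts brought to a common library size with scaling by the trimmed mean of M-values (TMM), and are given as mean ± SD of 3 libraries. Fold changes are on the log2 scale with their standard error (SE) from 1 fit of all 12 libraries. The call for a gene was made by edgeR's quasi-likelihood test, at an adjusted p under 0.05 with the Benjamini-Hochberg method applied to all 14113 genes. The marker genes of macrophages were high in every library, with a summed level from 27588 to 37171 CPM over 11 genes. In RNA from whole cultures, fewer cells of a type and less RNA per cell cannot be told apart.

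The 19 genes lay within 679 kb, from 10962293 to 11640851 on chromosome 19 of GRCm38 (mm10), with 6 on the plus strand and 13 on the minus strand. Positions were read from GENCODE M21 unless RefSeq is named. Ms4a8a (11067471 to 11081102, minus strand) stood towards one end of the cluster. Ms4a7 (11321039 to 11336146, minus strand) and Ms4a14 (11301249 to 11314454, minus strand) were neighbours. A run of plus-strand genes followed, with Ms4a4a (11375523 to 11392790), Ms4a4c (11404770 to 11427246), Ms4a4b (11443553 to 11467055), Ms4a6c (11469366 to 11482192) and Ms4a6b (11516512 to 11531256). Ms4a6d (11586604 to 11604849) was on the minus strand beyond them. All 19 are annotated as protein-coding genes.

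Among the coding sequences of the tested members, 2 closely related sets stood out. Within Ms4a4b, Ms4a4c and Ms4a4d, and within Ms4a6b, Ms4a6c and Ms4a6d, aligned bases were 79% to 91.7% identical over 6 pairs. Ms4a4b and Ms4a4c were the closest pair at 91.7%, and Ms4a6b and Ms4a6c were 85.4% identical. The 49 other pairs of tested genes without Ms4a14, whose coding sequence of 3696 bases is far longer, were 57.9% to 68.3% identical. Stretches of 100 identical bases, long enough to confuse the assignment of reads, were rare within the family: 1.66% of those of Ms4a4c were shared with Ms4a4b, and those of Ms4a6b, Ms4a6d, Ms4a7 and Ms4a8a were shared with no annotated transcript of another gene. Ms4a6c was the exception, since 45.8% of its stretches were also present in BE692007, an overlapping transcript on the opposite strand. The protocols do not say whether counting used strand, so the reads of Ms4a6c and BE692007 cannot be told apart with certainty.

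The resemblance of these pairs reached into the sequence before their transcription starts. RefSeq promoter windows on GRCm38.p6, matched by symbol, were found for 17 of the 19 genes and 5 of the 6, with no entry for Ms4a6d and Ms4a1. In the 250 bases before the start, Ms4a6b and Ms4a6c aligned over 170 bases with 89.4% identity, and Ms4a4b and Ms4a4c over 127 bases with 89.8% identity. Both pairs are shown, from RefSeq, because the members of the first pair had similar levels relative to M across the libraries whereas those of the second did not. Each is read 5′ to 3′ on the plus strand up to the first base that GENCODE places in an exon. Capitals mark the letters GAAANNGAA in the first pair and the longest run of identical bases, 20 in all, in the second.
Ms4a6b, chr19:11518309-11518452: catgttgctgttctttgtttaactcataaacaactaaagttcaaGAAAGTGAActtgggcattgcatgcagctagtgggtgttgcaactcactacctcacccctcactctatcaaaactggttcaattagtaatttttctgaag
Ms4a6c, chr19:11469118-11469365: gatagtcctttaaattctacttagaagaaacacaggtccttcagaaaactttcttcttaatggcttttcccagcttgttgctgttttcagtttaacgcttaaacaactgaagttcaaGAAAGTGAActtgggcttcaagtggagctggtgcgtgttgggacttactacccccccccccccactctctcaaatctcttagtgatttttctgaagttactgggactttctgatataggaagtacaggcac
Ms4a4c, chr19:11407411-11407660: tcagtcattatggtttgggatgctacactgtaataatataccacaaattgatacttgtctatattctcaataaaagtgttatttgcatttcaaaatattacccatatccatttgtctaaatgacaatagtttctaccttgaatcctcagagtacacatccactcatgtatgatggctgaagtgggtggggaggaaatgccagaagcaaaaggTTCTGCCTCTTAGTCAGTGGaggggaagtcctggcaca
Ms4a4b, chr19:11443308-11443552: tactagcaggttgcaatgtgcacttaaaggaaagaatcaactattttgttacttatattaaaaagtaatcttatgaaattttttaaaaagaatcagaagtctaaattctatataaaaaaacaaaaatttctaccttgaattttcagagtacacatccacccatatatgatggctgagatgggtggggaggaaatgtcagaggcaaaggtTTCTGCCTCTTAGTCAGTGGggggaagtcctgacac
The Ms4a6b and Ms4a4c stretches lie inside the GENCODE genes of those names, which have an earlier start in another transcript, and are intronic there. The other pair of stretches lies between genes.

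The windows of 250 bases before and 50 bases after each start were searched on both strands for 4 motifs. The interferon-stimulated response element (ISRE) was in none of the windows of the 6 genes and in 3.44% of 32851 windows genome-wide. The interferon gamma-activated site, written TTCNNNGAA, was in none of the 6 genes' windows and in 8.3% of all, and the PU.1 core GAGGAAGT was in none and in 3.2% of all. The AP-1 site TGANTCA, in 7.81% of all windows, was present for Ms4a8a and for 1 of the windows of Ms4a7, as well as for Ms4a14, Ms4a4b and Ms4a12. After the sequences had been read, the form GAAANNGAA, which is that element without its last base and therefore overlaps it, was also searched. It was in 8.56% of all windows, and among the 6 genes it was present for Ms4a6b from base -206 to -198, for Ms4a6c from base -133 to -125, counted from the start as 0, and in both windows of Ms4a7. A match describes letters only, and no match says only that these letters are not in the window.

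Together the Ms4a transcripts made up 844 ± 89 CPM in M, 3522 ± 115 CPM in IA, 1262 ± 20 CPM in MA and 2364 ± 282 CPM in MetSA (SD, n = 3), summed over the 12 tested genes. The 4 groups did not overlap in this sum. Ms4a7 supplied 45.4% of it in M and 45.8% in MA, against 26.7% in IA and 28.3% in MetSA. The share of Ms4a4c went the other way, from 1.7% in M and 0.926% in MA to 13.3% in IA and 8.88% in MetSA. Ms4a6b likewise took 11.5% in M and 10.8% in MA, against 20% in IA and 18.2% in MetSA.

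**Figure D1:**
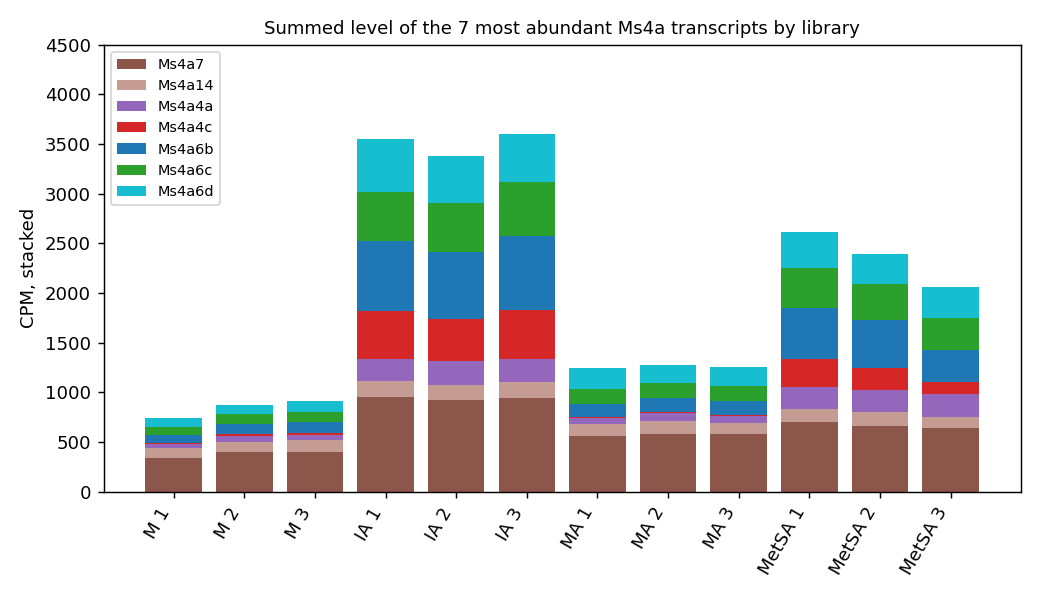
Stacked CPM (vertical axis, from 0) of the 7 most abundant Ms4a transcripts in each of the 12 libraries (horizontal axis). The IA bars are the tallest, with means of 3522 CPM for the family against 844 CPM in M, and the Ms4a4c segment is visible in IA and MetSA but hardly in M and MA.

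Levels of different genes were compared per kilobase of annotated exon. On that scale Ms4a7 was highest in M at 85.9 ± 7.9 CPM per kb, followed by Ms4a4a at 65 ± 13, Ms4a6d at 53.7 ± 4.3 and Ms4a6c at 47.6 ± 6.2 CPM per kb, with Ms4a6b at 21.6 ± 2.6 and Ms4a4c at 8.31 ± 2.6 CPM per kb. In IA the order was different: Ms4a6d at 287 ± 20, Ms4a4a at 279 ± 14, Ms4a4c at 267 ± 20 and Ms4a6c at 249 ± 13 CPM per kb lay within their spread of each neighbour in the order, and Ms4a7 at 211 ± 3.9 CPM per kb came after them. In MA Ms4a7 led as in M, at 130 ± 2.8 CPM per kb, followed by Ms4a6d at 112 ± 6.7 and Ms4a4a at 83 ± 5.6 CPM per kb, and Ms4a4c stood at 6.69 ± 2 CPM per kb. In MetSA Ms4a4a led at 262 ± 4.3 CPM per kb, ahead of Ms4a6d at 189 ± 17 and Ms4a6c at 177 ± 20 CPM per kb, which did not differ beyond their spread.

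Ms4a4c, a member of the Ms4a4 set, differed most between groups among the 6. It was at 9.87, 15 and 18.8 CPM in the 3 M libraries, at 480, 427 and 496 CPM in IA, at 7.73, 13.9 and 13.5 CPM in MA, and at 282, 231 and 130 CPM in MetSA. The IA and MetSA libraries lay far above those of M and MA, which overlapped each other, and every IA library was above every MetSA library. The log2 fold change was 5.00 (SE 0.39), or 32.1-fold, for IA against M, and 3.88 (SE 0.37), or 14.7-fold, for MetSA against M. For MA against M it was -0.32 (SE 0.36). Ordered from the largest increase over M, Ms4a4c stood at place 17 of the 14113 genes in IA and at place 16 in MetSA, but at place 11730 in MA. IA exceeded MetSA by 1.13 (SE 0.32) on the log2 scale, a difference that was not called in the main fit. It ranged from 0.87 to 1.38 when libraries were left out in turn.

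Ms4a6b belongs to the Ms4a6 set. It was at 84, 100 and 107 CPM in M, at 703, 673 and 743 CPM in IA, at 134, 142 and 135 CPM in MA, and at 515, 476 and 314 CPM in MetSA. No 2 groups overlapped, and the order was IA, MetSA, MA and M. The log2 fold change against M was 2.86 (SE 0.17) in IA, 2.16 (SE 0.17) in MetSA and 0.50 (SE 0.16) in MA. IA exceeded MetSA by 0.70 (SE 0.16) on the log2 scale.

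Ms4a6c, its closest relative by coding sequence among the members, started from a similar CPM level. It was at 82.9, 104 and 106 CPM in M, at 494, 495 and 541 CPM in IA, at 149, 153 and 151 CPM in MA, and at 405, 360 and 325 CPM in MetSA. The groups took the same order as for Ms4a6b and again did not overlap. The log2 fold change against M was 2.38 (SE 0.09) in IA, 1.89 (SE 0.09) in MetSA and 0.63 (SE 0.09) in MA. IA exceeded MetSA by 0.49 (SE 0.09).

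Ms4a6d encodes a macrophage protein known to associate with the receptor Vsig4. It was at 86.7, 91.4 and 101 CPM in M, at 536, 471 and 484 CPM in IA, at 205, 182 and 197 CPM in MA, and at 363, 310 and 311 CPM in MetSA. The order of groups was the same, without overlap, and of the 5 abundant members this one stood furthest above M in MA in terms of fold change. That log2 fold change was 1.06 (SE 0.08), or 2.09-fold, beside 2.42 (SE 0.08) in IA and 1.82 (SE 0.08) in MetSA. IA exceeded MetSA by 0.60 (SE 0.08).

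Ms4a7, a gene used as a macrophage marker, was the most abundant member in counts. Of the 5, it had the smallest log2 fold changes against M in IA and in MetSA, but not in MA. It was at 342, 404 and 401 CPM in M, at 953, 920 and 948 CPM in IA, at 563, 585 and 585 CPM in MA, and at 697, 657 and 638 CPM in MetSA. The 4 groups were separate and in the order IA, MetSA, MA and M. The log2 fold change against M was 1.30 (SE 0.07) in IA, 0.80 (SE 0.06) in MetSA and 0.60 (SE 0.06) in MA. MA was 0.20 (SE 0.06) below MetSA on the log2 scale (log2 fold change -0.20), the closest approach of these groups among the 5 genes.

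Ms4a8a, described in alternatively activated macrophages, was close to the limit of counting. Its raw counts were 0, 4 and 2 in M, 7, 12 and 12 in IA, 0, 20 and 2 in MA, and 12, 22 and 10 in MetSA. Each IA and MetSA library held more counts than each M library, whereas MA held 20 counts in replicate 2 and overlapped the other groups. The log2 fold change was 2.41 (SE 1.06) for IA, 2.86 (SE 1.03) for MetSA and 1.80 (SE 1.10) for MA against M, and none of these was called. Without MA replicate 2 the MA value was -0.92.

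**Figure D2:**
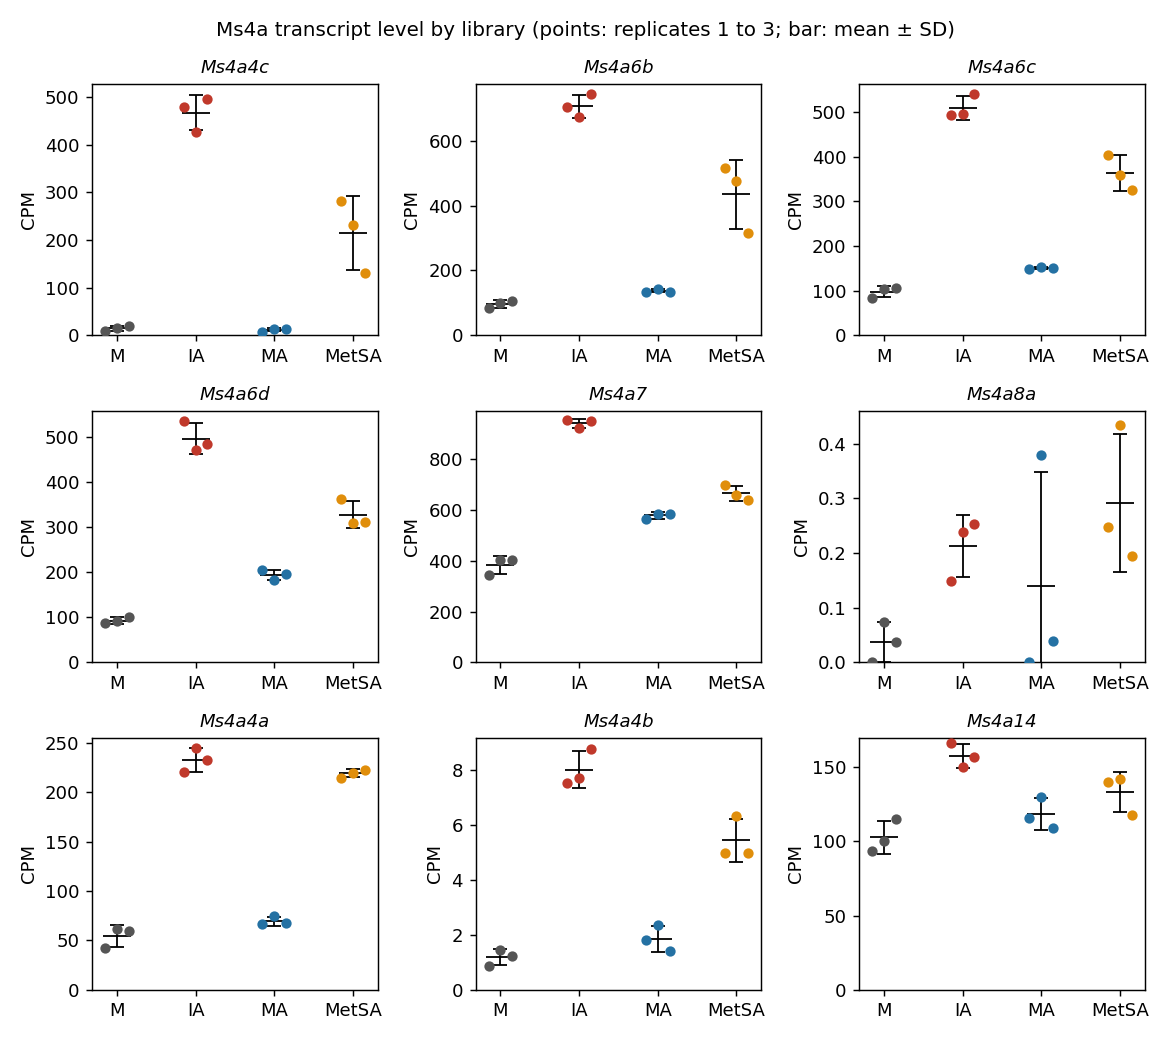
CPM (vertical axes, each from 0) of 9 Ms4a genes in the 12 libraries by group (horizontal axes), with points for replicates and bars for mean ± SD. Ms4a4c is near the bottom in M and MA (14.6 and 11.7 CPM) and high in IA and MetSA (468 and 214 CPM), whereas Ms4a6d and Ms4a7 stand at an intermediate level in MA (195 and 578 CPM).

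Among the genes outside the 6, Ms4a4a, a surface protein of macrophages, was at 41.9, 61.6 and 59.5 CPM in M, 221, 245 and 233 CPM in IA, 66.2, 74.7 and 67.2 CPM in MA, and 215, 220 and 223 CPM in MetSA. Unlike the 5 abundant members above, it overlapped between IA and MetSA, with a log2 difference of 0.09 (SE 0.11). Its log2 fold change against M was 2.10 (SE 0.11) in IA, 2.01 (SE 0.11) in MetSA and 0.35 (SE 0.11) in MA.

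Ms4a4b, known from T cells, was low, at 1.18 ± 0.29 CPM in M, 8.01 ± 0.67 CPM in IA, 1.85 ± 0.47 CPM in MA and 5.44 ± 0.78 CPM in MetSA. Its log2 fold change of 2.76 (SE 0.21) in IA was below that of Ms4a4c, and the value in MA was 0.65 (SE 0.22), with M and MA overlapping. Although Ms4a4b and Ms4a4c are the closest pair in coding sequence, their profiles over the 12 libraries, each centred on M, differed by a root mean square of 1.54 on the log2 scale. The same distance was 0.29 for Ms4a6b and Ms4a6c, 0.24 for Ms4a6c and Ms4a6d, and 0.24 for Ms4a4b and Ms4a6b.

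Ms4a14 was at 103 ± 11 CPM in M, 158 ± 7.7 CPM in IA, 118 ± 10 CPM in MA and 133 ± 13 CPM in MetSA, with log2 fold changes of 0.62 (SE 0.09), 0.20 (SE 0.09) and 0.38 (SE 0.09) in IA, MA and MetSA. It was the tested Ms4a gene with the smallest differences from M among those above 1 CPM in every group. Its profile differed from that of its neighbour Ms4a7 by 0.45.

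The lineage genes of the family were barely counted. Ms4a1, which is CD20, had 4 to 15 raw counts in M, 16 to 31 in IA, 6 to 20 in MA and 4 to 26 in MetSA, and Ms4a3 had 0 to 26 counts over all libraries. Ms4a2, the IgE receptor chain, had at most 3 counts in any library and was not tested. Ms4a4d had 1, 0 and 0 counts in M, 12, 18 and 14 in IA, 12, 2 and 0 in MA, and 11, 4 and 1 in MetSA, too few in M for a fold change. Ms4a10 and Ms4a13 were at 0 in each library, where 3 counts is the most that a count of 0 allows, and Ms4a5, Ms4a12, Ms4a15 and Ms4a18 had at most 4, 10, 3 and 1 counts.

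Read against the whole table, 9 of the 12 tested Ms4a genes and 5 of the 6 were called higher in IA than in M, where 17.9% of all genes were called higher. The 9 include Ms4a4d, which entered the fit only through the groups with higher counts. Ms4a8a entered in the same way and is among the 12 behind the medians below. In MetSA against M the counts were 8 and 5, beside 12.6% of all genes. In MA against M they were 5 and 3, beside 10.1%, and the 5 became 3 without M replicate 1, MA replicate 1 or MA replicate 2. None of the 12 was called lower in these comparisons, except 1 in MA with no filter on low counts, where 7 were called higher. The median log2 fold change of the 12 was 2.40 in IA, 1.95 in MetSA and 0.56 in MA, where the medians of all genes were -0.03, -0.01 and -0.02. Between the acids, 4 of the 12 were called higher in IA than in MetSA (3.97% of all genes), namely Ms4a6b, Ms4a6c, Ms4a6d and Ms4a7, all among the 6. Ms4a4c was not called there. In IA against MA 8 were called higher (17.8%), and 7 were called lower in MA than in MetSA (14.7%). Since these values chose the members, the counts describe them and support nothing further, and the comparisons against M share the same M libraries.

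The genes between and around the family were not used to choose it. Of 29 neighbours without an Ms4a symbol, 13 were tested, of which 4 lay inside the cluster, 6 before it and 3 after it. Inside, 3 of 4 rose in IA and in MetSA and 1 rose in MA, where 17.9%, 12.6% and 10.1% of all genes were called higher. They were AW112010, a long noncoding RNA gene described in interferon-stimulated and inflammatory cells (11047612 to 11055808), BE692007 (11470166 to 11484578) and the predicted protein-coding gene Gm8369 (11485938 to 11512577). AW112010 rose from 4.16 ± 1.4 CPM in M to 26.4 ± 3.4 CPM in IA and 15.2 ± 3.3 CPM in MetSA (log2 fold change 2.66, SE 0.23, edgeR adjusted p = 1.78e-06, and 1.86, SE 0.23, adjusted p = 7.17e-05), and was at 4.4 ± 0.47 CPM in MA (edgeR adjusted p = 0.88). BE692007, whose counts may include reads of Ms4a6c and so may not be separate from the family, rose by 1.96 in IA, 1.68 in MetSA and 0.59 in MA (edgeR adjusted p = 1.07e-09, 1.74e-08 and 0.000804). Gm8369 rose by 1.77 in IA and 1.12 in MetSA, and its value in MA was 0.49 (edgeR adjusted p = 7.62e-07, 0.000339 and 0.0988). The antisense gene 4930526L06Rik stayed between 0.864 and 1.28 CPM on average and was not called.

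Outside the cluster 4 of 9 tested neighbours rose and 2 fell in IA, 2 rose and 1 fell in MA, and 2 rose and 2 fell in MetSA, where 17.9%, 10.1% and 12.6% of all genes were called higher and 17.3%, 10.1% and 8.53% lower. Slc15a3, which encodes a lysosomal peptide and histidine transporter, rose from 260 ± 15 CPM in M to 542 ± 20 CPM in IA, 420 ± 13 CPM in MetSA and 323 ± 38 CPM in MA (log2 fold change 1.06, 0.69 and 0.31, edgeR adjusted p = 1.24e-09, 9.12e-07 and 0.00419). Ccdc86 rose from 28.9 ± 1 CPM to 66 ± 6.2 CPM in IA and 52.9 ± 7.7 CPM in MetSA (1.19 and 0.87, edgeR adjusted p = 4.36e-09 and 6.5e-07), and was at 30.1 ± 0.5 CPM in MA (adjusted p = 0.727). Tmem132a rose by 0.38 in IA and 0.36 in MA (edgeR adjusted p = 0.000647 and 0.0017). Tmem109 fell by 0.52 in IA, 0.23 in MA and 0.28 in MetSA (edgeR adjusted p = 1.2e-05, 0.0297 and 0.00703), and Prpf19, a splicing factor, fell by 0.30 in IA and 0.22 in MetSA (edgeR adjusted p = 0.000479 and 0.00975). The call of Tmem109 was lost in MA without M replicate 1 (-0.18) or 3 (-0.22), MA replicate 2 (-0.19) or 3 (-0.24), or IA replicate 3 (-0.21), and in MetSA without MetSA replicate 1 (-0.22). On the far side Stx3, a membrane fusion protein, rose by 0.30 in IA (edgeR adjusted p = 0.00974), a call that was lost with upper-quartile scaling (0.21) and without IA replicate 1 (0.24) or M replicate 2 (0.26). Mrpl16 was not called against M.

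**Figure D3:**
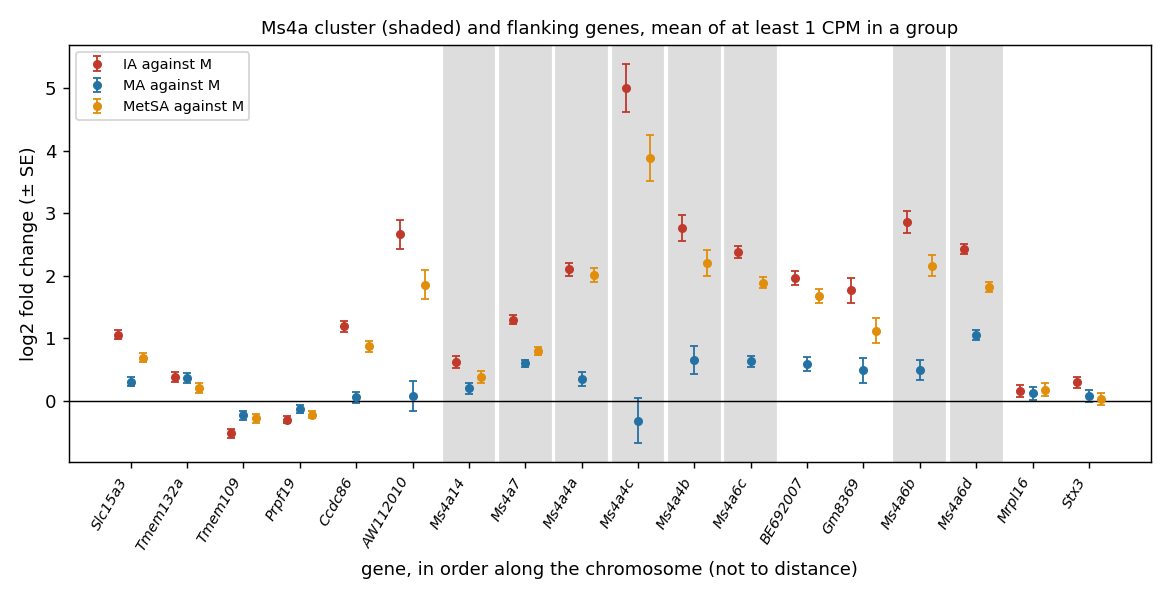
Log2 fold change against M (vertical axis, points with ± SE) for Ms4a genes (shaded) and their neighbours, in chromosome order and not to distance (horizontal axis). Genes with a mean of at least 1 CPM in a group are drawn, except 4930526L06Rik inside the cluster. That gene reached 1.28 CPM in MetSA, was not called, and had log2 fold changes of 0.15, 0.10 and 0.56 in IA, MA and MetSA. Ms4a4c has the highest IA value (5.00), AW112010, BE692007 and Gm8369 lie at 1.77 to 2.66 in IA, and Tmem109 and Prpf19 lie below 0.

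For each of the 6 genes, the 3 most similar profiles were sought among 8146 genes outside the family with a mean of at least 10 CPM, by the root mean square difference over the 12 libraries on the log2 scale after centring on M. The measure is a description and says nothing on function or control. Nearest to Ms4a4c were Ifi44 (0.27), Ly6a (0.33) and Ifi206 (0.34). Ifi44 had log2 fold changes of 5.21, -0.54 and 4.18 in IA, MA and MetSA. Nearest to Ms4a6b were Slfn3 (0.19), Enpp4 (0.23) and Ly6e (0.24), and nearest to Ms4a6c were Cd274, the gene of the checkpoint ligand PD-L1 (0.20), Bst2 or tetherin (0.28) and Slfn3 (0.31). Ifi44 and Bst2 are also on the type I interferon list described below.

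Ms4a7 had other nearest profiles, and Ms4a6d shared only Cd274 with Ms4a6c. For Ms4a6d these were Tlr5, the receptor of flagellin (0.31), Ctla2b (0.34) and Cd274 (0.34). Tlr5 had log2 fold changes of 2.07, 0.98 and 1.97 in IA, MA and MetSA. For Ms4a7 they were Slc29a3, a lysosomal nucleoside transporter (0.08), Nampt, an enzyme of NAD synthesis (0.15), and Pfkfb3, a regulator of glycolysis (0.16). Slc29a3 had log2 fold changes of 1.18, 0.56 and 0.82. Ms4a8a had no close match, with Tlr5 at 0.71, Abcb1a at 0.83 and Il1b at 0.84.

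The type I interferon response was followed with a list of 25 genes, all of them tested. In IA and in MetSA 25 of 25 rose, with a median log2 fold change of 2.93 and 2.18, where 17.9% and 12.6% of all genes were called higher. In MA 13 of 25 fell and none rose, with a median of -0.44, where 10.1% of all genes were called lower. That count was 7 without MA replicate 1 or 2, 6 without M replicate 2 or 3, and 21 with no filter on low counts. Trim30a, an antiviral regulator, rose from 245 ± 22 CPM to 919 ± 20 CPM in IA (log2 fold change 1.91, SE 0.07, edgeR adjusted p = 3.72e-13), and Ddx58, the RNA sensor RIG-I, from 119 ± 10 CPM to 566 ± 22 CPM (2.24, SE 0.09, edgeR adjusted p = 2.32e-12). Of the 5 abundant members, Ms4a4c had a log2 value below 0 in MA, while Ms4a6b, Ms4a6c, Ms4a6d and Ms4a7 had values from 0.50 to 1.06 there. The summed level of the list was 12581, 10891 and 8548 CPM in MetSA replicates 1, 2 and 3, and replicate 3 was also the lowest MetSA library for Ms4a4c, Ms4a6b, Ms4a6c and Ms4a7. The part of this in their values was not tested.

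Between IA and MetSA, which differ by the double bond, 16 of the 25 interferon genes were higher in IA and none lower, with a median difference of 0.64 on the log2 scale, where 3.97% of all genes were called higher and 2.15% lower. The 5 abundant Ms4a genes differed by 0.49 to 1.13 in the same direction, and the largest of these differences, that of Ms4a4c, was not called. Across all genes the median difference was -0.02.

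Molecules known to work with Ms4a proteins moved less. Of 12 such genes 11 were tested, and in IA and in MetSA 6 rose and 1 fell, with medians of 0.28 and 0.26, whereas in MA none rose and 3 fell (1 without MA replicate 1 or M replicate 2). All genes gave 17.9% called higher and 17.3% lower in IA, 12.6% and 8.53% in MetSA, and 10.1% each way in MA. Lyn, a Src family kinase that acts with the IgE receptor, rose from 309 ± 19 CPM to 501 ± 27 CPM in IA and 463 ± 11 CPM in MetSA and was at 265 ± 5.1 CPM in MA (log2 fold change 0.70, 0.58 and -0.22, edgeR adjusted p = 2.6e-08, 6.05e-07 and 0.0115). Tlr4, the endotoxin receptor, rose by 0.59 in IA and 0.29 in MetSA and fell by 0.30 in MA (edgeR adjusted p = 2.62e-06, 0.00586 and 0.00486). The gene that fell in both IA and MetSA was Hspd1, a mitochondrial chaperone, by 0.45 and 0.28 (edgeR adjusted p = 6.86e-05 and 0.0085), and the MetSA call was lost without MetSA replicate 2. Trem2, a lipid receptor associated with MS4A4A, was at 835 ± 37 CPM in M and was not called in IA (-0.06, SE 0.06), MA (0.05, SE 0.06) or MetSA (-0.11, SE 0.06). Vsig4 was low, at 1.02 ± 0.32 CPM in M, and was not called. Hspd1, Trem2 and Vsig4 were named after their values were seen.

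The related tetraspan genes Tmem176a and Tmem176b went another way. In MA Tmem176a fell from 115 ± 19 CPM to 51.9 ± 10 CPM and Tmem176b from 197 ± 32 CPM to 101 ± 22 CPM (log2 fold change -1.15, SE 0.23, and -0.96, SE 0.23, edgeR adjusted p = 0.00717 and 0.0182). Without MA replicate 1 or 2 or M replicate 3, 1 of the 2 genes was called. In IA they were at 74.1 ± 15 and 150 ± 33 CPM, with neither called lower in the main fit (edgeR adjusted p = 0.0586 and 0.234). With upper-quartile scaling, a stricter filter, DESeq2, or without M replicate 1 or MetSA replicate 3, 1 of the 2 genes was called. Both were called lower in IA with no filter on low counts and with the replicate block. In MetSA they were at 121 ± 26 and 221 ± 42 CPM.

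Since Ms4a genes are also used as markers of macrophage states, 2 further lists were counted. Of 10 genes that respond to TGF-beta or glucocorticoids, 7 rose and 2 fell in MA with a median of 1.11, against 5 and 1 in IA (0.33) and 5 and 0 in MetSA (0.16). In MetSA the 5 became 3 without M replicate 1 or 2 or MetSA replicate 1 or with upper-quartile scaling, and 2 in a fit of those 2 groups alone. Pmepa1, a TGF-beta target, rose by 5.34 in MA and 1.84 in IA, and Tgfbi by 1.78 and 0.91 (edgeR adjusted p = 9.53e-14, 3.68e-07, 4.99e-11 and 1.63e-07). The 2 genes that fell in MA were Dusp1 (-1.07) and Zbtb16 (-0.58), with edgeR adjusted p = 7.76e-10 and 0.00202. Both were named after their values were seen. Of 9 tested genes of alternative activation, 2 rose and 2 fell in IA, 3 and 3 in MA, and 2 and 2 in MetSA, where none fell without M replicate 1 or MetSA replicate 1. Over all genes 17.9% were called higher and 17.3% lower in IA, 10.1% each way in MA, and 12.6% higher and 8.53% lower in MetSA. Mrc1, the mannose receptor, fell by 2.00 in MA, 0.46 in IA and 0.31 in MetSA (edgeR adjusted p = 1.91e-11, 0.000368 and 0.0162), while Il4ra, the interleukin 4 receptor, rose by 0.57 to 0.65 in the 3 acids (largest edgeR adjusted p = 5.66e-07).

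Markers of macrophages and monocytes were counted as well. Of 11 macrophage markers 9 rose and none fell in IA and in MetSA, with medians of 0.36 and 0.31. In MA 3 rose and 1 fell (median 0.08). Of all genes, 17.9%, 12.6% and 10.1% were called higher in IA, MetSA and MA, and 17.3%, 8.53% and 10.1% lower. Fcgr1, which encodes a receptor for IgG, went from 307 ± 32 CPM to 1748 ± 42 CPM in IA and 1155 ± 239 CPM in MetSA, and was at 312 ± 19 CPM in MA (edgeR adjusted p = 1.94e-08, 4.55e-07 and 0.934). Its log2 fold change of 2.51 in IA stood apart from the other macrophage markers, of which the next largest, C1qc, rose by 0.61. Of 6 monocyte markers 4 rose in IA and 3 in MetSA (medians 1.33 and 0.81), none fell there, and 1 rose and 2 fell in MA with a median of -0.14. Their summed level was 245 to 296 CPM in M, 557 to 678 CPM in IA, 272 to 278 CPM in MA and 404 to 514 CPM in MetSA, and none was at 0. Ccr2, the chemokine receptor of monocytes, rose by 1.27 in IA and 0.86 in MetSA (edgeR adjusted p = 3.91e-06 and 0.00021), and Plac8 by 3.30 and 2.16 (edgeR adjusted p = 2.34e-09 and 1.08e-06). Fn1 of the same list went the other way, at -0.77 in IA and -0.59 in MetSA without a call. It was the gene that rose in MA (1.71, edgeR adjusted p = 0.0146). Chil3 was not called with any acid, and Ly6c2 was called only in IA. C1qc, Fn1, Chil3 and Ly6c2 were named after their values were seen. In MA 0 to 2 monocyte markers were called lower as libraries were left out. The part of these markers in the Ms4a values was not tested.

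Markers of the cell types that carry Ms4a1, Ms4a2 and Ms4a3 were also summed. For B cells the summed level of the list, mostly Ighm, was 135 to 173 CPM in M, 109 to 151 CPM in IA, 107 to 118 CPM in MA and 117 to 166 CPM in MetSA, with only Cd22 called, higher with each acid. For T and NK cells Cd3g and Ncr1 were at 0 and the sum of 8 genes, nearly all Cd4, was 12.5 to 14.8 CPM in M, 21.6 to 30.8 CPM in IA, 10.3 to 10.9 CPM in MA and 21.2 to 27.5 CPM in MetSA, with 1 of 3 tested genes higher in IA and in MetSA and 1 lower in MA. For mast cells and basophils Mcpt4 was at 0, and the sum of 7 genes was 1.23 to 1.64 CPM in M, 4.39 to 5.04 CPM in IA, 0.722 to 1.47 CPM in MA and 2.43 to 3.6 CPM in MetSA, with Hdc, the histamine-forming enzyme, the 1 of 3 tested genes that rose, in IA and MetSA. Progenitor markers summed to 3.96 to 8.14 CPM over all libraries, and 1 of 6 rose, in MetSA. Among all genes 17.9%, 10.1% and 12.6% were called higher in IA, MA and MetSA, and 10.1% lower in MA. With lists this short, counts of 1 gene are not read as a result.

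Dendritic cell markers summed to 1.78 to 3.48 CPM in M, 7.44 to 8.71 CPM in IA, 2.98 to 4.12 CPM in MA and 3.18 to 5.41 CPM in MetSA, with 2, 2 and 1 of 6 higher in IA, MA and MetSA, and 1 in IA when most single libraries were left out. Most of the IA sum was Xcr1, which rose from 0.223 ± 0.055 CPM to 4.86 ± 0.27 CPM (edgeR adjusted p = 3.59e-10). Neutrophil markers summed to 70.7 to 119 CPM over all libraries, with 1 of 6 tested genes higher with each acid. Since 17.9%, 10.1% and 12.6% of all genes were called higher in IA, MA and MetSA, counts of 1 or 2 genes in these lists are not read as a result. Stromal markers summed to 7.27 to 37.6 CPM, and of 4 tested genes edgeR called none, or 1 lower in IA and 1 in MetSA with no filter on low counts. The part of these lists in the Ms4a values was not tested either.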

How the data were processed

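Poly(A) RNA-seq of 12 libraries was analysed from the deposited table of whole-number counts per gene, which the authors had not normalised. STAR, featureCounts and mm10 were used, per the submitters' processing notes; neither tool versions nor the annotation used for counting is given in the sources used here. Of counts from 1 to 9, 66.1% were even against 50.9% of counts of 1000 or more, so both mates of a pair may have been counted, in which case depth in fragments is below the totals.

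Genes were filtered by filterByExpr (14113 kept), scaled by TMM and tested by edgeR's quasi-likelihood test (R 4.3.3, edgeR 4.0.16, limma 3.58.1) in 1 fit of 4 groups with 8 residual degrees of freedom. Groups and replicate numbers came from the sample titles. Same-number libraries correlated at 0.0122 to 0.169 in their deviations, with 2 of 18 pairs over 0.1. Their median was 0.0693, against -0.0322 for other pairs. In 35 of 36 cases a library correlated best, within another group, with the library of its own number. Same-number libraries were not treated as pairs in the main fit, so a shared origin is not accounted for there. The script was tested on simulated data. Alternatives were DESeq2 1.42.0, other scaling and filters (5 CPM in 3 libraries, or none), halved counts, fits of 2 groups, a replicate block and leaving out each library.

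The members and gene lists were chosen with earlier results of these data known. Named genes were all Ms4a genes, the 3 nearest profiles of each member (predicted genes skipped), called neighbours, and up to 2 genes a list with the smallest adjusted p or at 0. Positions came from GENCODE M21 and promoter windows from RefSeq (GRCm38.p6). The motif GAAANNGAA was added after the sequences were read. A gene of the B cell list is not reported here.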

Additional observations from a re-analysis of the deposited data

How the results depend on the processing

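Of 1326 recomputed values for 72 Ms4a fold changes, 1310 stayed within 1 SD of the reported value, 16 moved by more and 0 reversed after a call. Of the 16, 15 belonged to Ms4a8a, Ms4a1 and Ms4a4d, where low counts limit precision. The other was Ms4a7 in IA against M, at 1.21 with upper-quartile scaling instead of 1.30. The SD used here is not the SE of the fold changes. Ms4a7 in MA against M, at 0.52 instead of 0.60 (SE 0.06), counted as within it. Ms4a8a in MA against M ranged from -0.92 to 2.69 as libraries were left out. The number of genes called between IA and MetSA was 864, and was 1483 with no filter, 1413 with the replicate block, 575 in a fit of those 2 groups and 1348 with DESeq2. It was 420 to 974 when a library was left out, with 426, 567 and 420 without IA replicates 1, 2 and 3 and 505 without MetSA replicate 3, and the cause was not tested. Ms4a genes called higher in IA than in MetSA numbered 3 to 7 across all settings. The replicate numbers share no stated origin, but in 35 of 36 cases a library correlated best, within another group, with the library of its own number, a hint from the data and not the design. With the replicate block both Tmem176 genes were called lower in IA and 1 higher in MetSA, and the calls of all genes were 5507, 3262 and 3527 for IA, MA and MetSA against M, 5380 for IA against MA and 4215 for MA against MetSA. Upper-quartile scaling shifted the median of all genes by at most 0.09 and changed the share of calls that were higher from 50.9% to 34.8% for IA against M, 59.7% to 42.2% for MetSA against M, 51.5% to 37.5% for IA against MA, 64.8% to 54.2% for IA against MetSA and 44.1% to 54.5% for MA against MetSA. List counts of 1 or 2 genes often changed by 1 or 2 between settings.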
